A study of Sus scrofa with 12 samples.

Results

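The nucleolar genes of ribosome production were followed in the oxyntic mucosa, which lines the acid-secreting region of the stomach, of piglets given a complex or a simple starter microbiota. The genes were chosen by name: those whose symbol begins with NOP, UTP, RRP, NOL, GNL, NOC, POLR1 or EXOSC, together with BOP1, NIP7, IMP3, IMP4, BYSL, FBL, NCL, NPM1 and MPHOSPH10. Of the 10912 genes with a feature of their own on the array, 38 met this rule, through 44 features, and the brightest feature was used where a gene had several. BOP1, FBL and NPM1 are not among the 38. One of the 38, GNLY, was taken in by its first letters alone, since it encodes granulysin, a protein of the lytic granules of T and natural killer cells. It was kept in the count of 38 and left out wherever 37 nucleolar genes are given. The rule uses gene names and no measured value, but it was set with earlier results of these data known.

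The samples came from 12 piglets of a [(Great York x Pietrain) x Dalland] cross, delivered by caesarean section and sampled at 2 weeks of age, with 1 array per piglet. The 6 CA piglets (complex association) had received diluted feces of an adult sow, and the 6 SA piglets (simple association) a placebo inoculant. Piglets of both groups had first been given the same starter microbiota of Lactobacillus amylovorus, Clostridium glycolicum and Parabacteroides, and a moist diet followed. The sources differ on whether sow colostrum or sow serum was fed at birth. They also differ on housing. The labels place the treatments in separate rooms, in which case room and treatment cannot be told apart, while the study's methods house piglets of both groups in each pen or room. The labels give no litter, sex, pen or strip for the single piglets. Values are log2 of the array intensity, and each difference is CA minus SA, so that a negative one is lower in CA.

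Ribosomes are assembled in the nucleolus. RNA polymerase I makes a long precursor of ribosomal RNA there, the small subunit processome folds and cuts the part that enters the small subunit, a second line of factors matures the large subunit, small nucleolar ribonucleoproteins guide chemical modification, and the RNA exosome trims and removes RNA. The pathway is generally most active in growing and dividing cells and in cells that make much protein, and in the oxyntic mucosa these include the dividing cells of the gland isthmus and the enzyme-secreting chief cells. MYC is a known activator of many of its genes.

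Before the results, 1 array has to be named. CA piglet 4 had the lowest limma array weight of the 12 (0.2665, the next being 0.6925 in SA piglet 9) and lay at one extreme of the leading principal component (26.3% of the variance). Leaving it out moved the difference of 25 of the 38 genes by over 1.5 times or turned its sign, to a lower value for 19 of them and to a higher one for 6, and these values are given below beside those of all piglets. Array medians were close, between 56.2 and 57.6 in CA piglets and between 55.6 and 57.4 in SA piglets in linear intensity. The deposited values were quantile normalized, which brings the medians together, so these say nothing about array quality. The proton pump subunits that define acid-secreting mucosa were high in all arrays, with ATP4A at 12.12 ± 0.15 in CA and 11.90 ± 0.18 in SA piglets and ATP4B at 11.71 ± 0.20 in CA and 11.47 ± 0.22 in SA piglets (SD, n = 6 each).

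The nucleolar genes had a lower mean in CA than in SA piglets more often than genes at large, by small amounts. Of the 38 genes, 30 were lower in CA (78.9%), against 47.3% of all genes tested, and without GNLY it was 30 of 37 (81.1%). Of the 38, 37 were brighter than the median feature. Among all genes at least that bright, 52.2% were lower in CA, against 81.1% of the members there. The median difference of the 38 was -0.05 on the log2 scale, against 0.01 for all genes, and the quartiles were -0.12 and -0.01, against -0.05 and 0.06 for all genes. The single differences reached from -0.33 for EXOSC8 to 0.11 for GNLY. After adjustment over all genes with limma, 0 members passed at 0.05, as did 0% of all genes, and the same was found with the exact permutation test. At an unadjusted p under 0.05, 3 members were lower in CA (GNL3, EXOSC8 and UTP15), while 1.22% of all genes were, and 0 members were higher, while 2.06% of all genes were. The exact permutation test, whose smallest p for 6 against 6 piglets is 0.00216, put 5 members under 0.05 and lower in CA (GNL3, UTP15, UTP20, EXOSC8 and NIP7), against 1.33% of all genes. The tissue was measured in bulk, so that fewer cells of a type and less RNA per cell cannot be told apart.

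**Figure D1:**
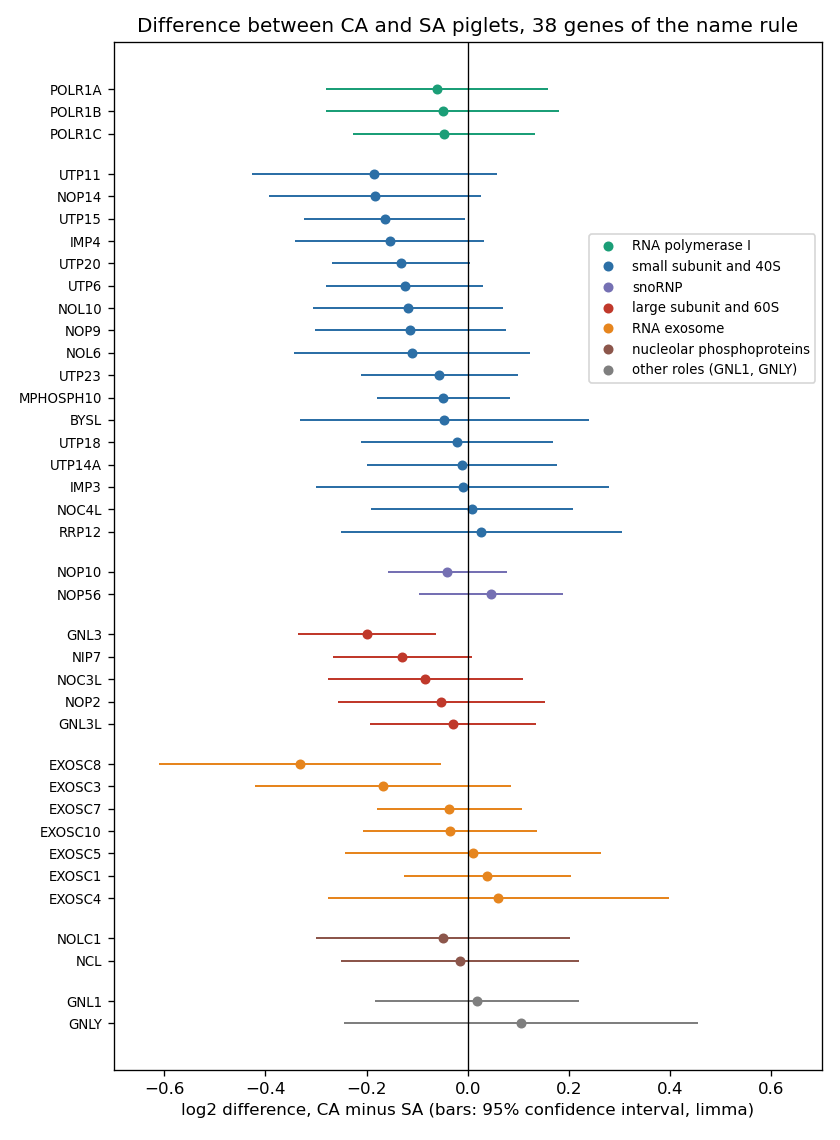
Difference between CA and SA piglets in log2 intensity (x axis) for each of the 38 genes (y axis), grouped by role, with the 95% confidence interval from limma as bars. Most points lie left of 0, and only the intervals of GNL3, EXOSC8 and UTP15 leave it out.

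The count of genes that were lower depended on single piglets. Without CA piglet 4, 36 of the 38 were lower (94.7%, against 50.6% of all genes) and the median was -0.08. GNLY and NOP56 were then the only ones that were higher, and 5 members were lower at an unadjusted p under 0.05 (EXOSC8, GNL3, IMP4, NIP7 and NOL6), while the share of all genes was 2.14%, against 1.22% with this piglet. Without SA piglet 10, 23 of 38 were lower (60.5%, against 46.8% of all genes), with a median of -0.03. Without CA piglet 6 it was 24 of 38 (63.2%, against 45.8% of all genes), with a median of -0.02. Without CA piglet 1 it was 27 of 38 (71.1%, against 45.1% of all genes), and the median was also -0.02.

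Among the factors of the large ribosomal subunit, 5 of 5 measured genes (of 16 listed for this role) were lower in CA, with a median difference of -0.08. GNL3 (nucleostemin), a nucleolar GTPase abundant in stem and dividing cells, separated the groups. Its lowest, median and highest values were 7.51, 7.57 and 7.61 in CA piglets, against 7.65, 7.76 and 7.92 in SA piglets. Every CA piglet was thus below every SA piglet, a pattern found in 0.055% of all genes and in no other member. The difference was -0.20 (SE 0.06, 95% confidence interval -0.33 to -0.07), or a fold of 0.871, with the smallest p that the exact permutation test allows (0.00216; adjusted over all genes 1.00) and 0.0066 with limma (adjusted 0.999). Whichever single piglet was left out, GNL3 stayed at an unadjusted p under 0.05 in limma, at most 0.0174, and between -0.22 and -0.17. The CA piglets also lay close together for this gene, with an SD of 0.05 in CA and 0.12 in SA piglets. Of all 10912 genes, 6 separated the groups fully in this direction and 8 in the other. Full separation in either direction makes up a share of 0.00216 of the splits in the exact permutation test, so some such genes arise by chance.

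NIP7, which takes part in large subunit maturation and the processing of its RNA, gave 7.81, 7.91 and 8.09 as lowest, median and highest in CA piglets, against 7.95, 8.06 and 8.17 in SA piglets. The groups overlapped through CA piglets 3 and 4, the highest of their group, and SA piglet 12, the lowest of its own. The difference was -0.13 (SE 0.06), with an exact permutation p of 0.0390 and a limma p of 0.0602. NOC3L, a factor of early large subunit particles in yeast, was at -0.08 (SE 0.09) but at -0.016 without CA piglet 4, in which it was lowest. NOP2, a methyltransferase of the large subunit RNA, was at -0.05 (SE 0.09) and at -0.08 without that piglet, but at -5.2e-05 without SA piglet 10. GNL3L, the close relative of GNL3, was at -0.03 (SE 0.08), with values from 7.94 to 8.32 in CA and from 7.96 to 8.27 in SA piglets, and at -0.08 without CA piglet 4. Without SA piglet 10 it was at 0.0044. Whether GNL3 and GNL3L differ in their response was not tested.

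The factors of the small ribosomal subunit were the largest group, with 15 of 17 measured genes (of 28 listed) lower in CA and a median difference of -0.11. The 7 measured UTP proteins of the processome were each lower, between -0.18 and -0.01. UTP15 belongs to the complex that first binds the nascent RNA precursor. It was at 6.91, 7.13 and 7.18 in CA piglets (lowest, median and highest), against 7.12, 7.21 and 7.47 in SA piglets. All 6 CA piglets lay below the SA median, and the groups overlapped through SA piglet 11. The difference was -0.16 (SE 0.07), with an exact permutation p of 0.0195 and a limma p of 0.0419, and it was under 0.05 in limma in 6 of the 12 fits that left out 1 piglet. A second feature of UTP15 had a difference of -0.20. With the mean of its features the difference was -0.18, and UTP15 was then not under 0.05 in limma. It was also not under 0.05 in a limma fit with an intensity trend.

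UTP20, a large protein of the processome, had 7.04, 7.27 and 7.32 in CA piglets, against 7.26, 7.34 and 7.46 in SA piglets. As for UTP15, all 6 CA piglets were below the SA median, and CA piglet 4 was the lowest of all. The difference was -0.13 (SE 0.06), with an exact permutation p of 0.0195 and a limma p of 0.0537. UTP11 differed by -0.18 (SE 0.11) and UTP6 by -0.13 (SE 0.07), and both were lowest in CA piglet 4. Without it they differed by -0.09 and -0.08. The remaining UTP genes showed little difference, with UTP23 at -0.06 (SE 0.07), UTP18 at -0.02 (SE 0.09) and UTP14A, known to activate a helicase of the processome, at -0.01 (SE 0.09). UTP14A was at -0.03 without CA piglet 4.

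**Figure D2:**
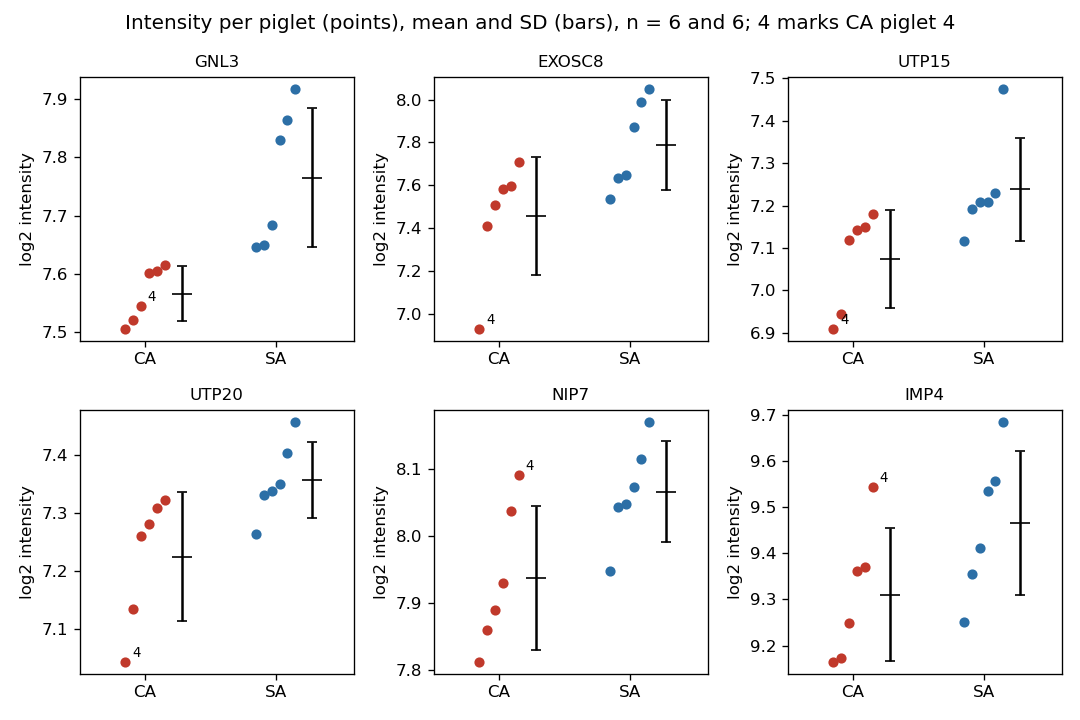
Log2 intensity (y axis) of GNL3, EXOSC8, UTP15, UTP20, NIP7 and IMP4 in each of 6 CA and 6 SA piglets (points, sorted by value within a group), with the mean and SD as bars and CA piglet 4 marked by its number. GNL3 is the only one of these whose groups do not overlap, and CA piglet 4 is the lowest point for EXOSC8, UTP15 and UTP20 and the highest CA point for NIP7 and IMP4.

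IMP3, IMP4 and MPHOSPH10 form a complex that joins the U3 small nucleolar RNA to the precursor. IMP4 was at 9.17, 9.31 and 9.54 in CA piglets, against 9.25, 9.47 and 9.68 in SA piglets. Its difference was -0.15 (SE 0.09), with an exact permutation p of 0.102 and a limma p of 0.0943. MPHOSPH10 was at -0.05 (SE 0.06) and IMP3 at -0.01 (SE 0.13), and the difference between the partners was not tested. Without CA piglet 4, where IMP3 was highest, IMP3 was at -0.14 and MPHOSPH10 at -0.03, while IMP3 was at 0.05 without CA piglet 6. NOP14 was at -0.18 (SE 0.10), NOL10 at -0.12 (SE 0.09), NOP9 at -0.11 (SE 0.09) and NOL6 at -0.11 (SE 0.11), all of them assembly factors of the small subunit. Of the later 40S factors, BYSL was at -0.05 (SE 0.13). The 2 genes of the group with a higher mean in CA were NOC4L, the partner of NOP14 in yeast, at 0.01 (SE 0.09), and RRP12, a factor in the export of subunits in yeast, at 0.03 (SE 0.13). All 4 of NOL6, BYSL, NOC4L and RRP12 had lower values without CA piglet 4, at -0.20, -0.16, -0.04 and -0.09. Without CA piglet 1, BYSL, NOC4L and RRP12 were at 0.02, 0.06 and 0.09, and without CA piglet 6, NOL6 was at -0.06.

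RNA polymerase I was represented by 3 of 8 listed genes, all 3 with a slightly lower mean in CA. POLR1A, the largest catalytic subunit, was at 6.80, 7.12 and 7.51 in CA piglets and at 7.05, 7.20 and 7.34 in SA piglets, a difference of -0.06 (SE 0.10). POLR1B, the second catalytic subunit, was at -0.05 (SE 0.11), and POLR1C, which RNA polymerases I and III share, at -0.05 (SE 0.08). CA piglet 4 was the highest of the 12 piglets for each of the 3, and without it the differences were -0.14 for POLR1A, -0.14 for POLR1B and -0.11 for POLR1C. Other piglets moved them the other way. Without CA piglet 6, POLR1A was at 0.0040 and POLR1C at -0.0055, and without SA piglet 10, POLR1B was at -0.0040. With all piglets, their exact permutation p was between 0.582 and 0.671.

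The 2 measured proteins of small nucleolar ribonucleoproteins, of 4 listed, went opposite ways. NOP10, of the H/ACA particles that guide pseudouridylation, was at -0.04 (SE 0.05), with 10.54, 10.70 and 10.75 in CA piglets and 10.64, 10.70 and 10.76 in SA piglets. NOP56, a core protein of the box C/D particles that guide methylation, was at 0.05 (SE 0.07), with 9.24, 9.38 and 9.48 in CA piglets and 9.17, 9.32 and 9.47 in SA piglets. Neither difference was larger than its standard error, and NOP56 was at 0.02 without CA piglet 4. The phosphoproteins NOLC1 and NCL (nucleolin) were at -0.05 (SE 0.12) and -0.02 (SE 0.11), and GNL1, a GTPase of the same family as GNL3, at 0.02 (SE 0.09). Without CA piglet 4 they were at -0.13, -0.09 and -0.03. Without CA piglet 6, NOLC1 was at 0.0029 and NCL at 0.05. The sign of NCL changed in 5 of the 12 fits that left out 1 piglet.

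The RNA exosome held the largest single difference of the 38 genes, while only 4 of its 7 measured genes (of 10 listed) were lower in CA, with a median of -0.03. EXOSC8, a subunit of the ring of the complex, was at 6.93, 7.54 and 7.71 in CA piglets, against 7.54, 7.76 and 8.05 in SA piglets. All CA piglets were below the SA median, 1 of them, piglet 4, far below the others. The difference was -0.33 (SE 0.13, 95% confidence interval -0.61 to -0.05), or a fold of 0.795, with an exact permutation p of 0.0346 and a limma p of 0.0226. Without CA piglet 4 it was -0.23, and it stayed under 0.05 in limma in 10 of the 12 fits that left out 1 piglet, the highest p being 0.0541. EXOSC3, of the cap that feeds RNA into the ring, was at 5.49, 6.06 and 6.22 in CA piglets, against 6.04, 6.07 and 6.39 in SA piglets. Here the medians were nearly the same, and the difference of -0.17 (SE 0.12) was -0.07 without CA piglet 4.

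The other exosome genes differed less. EXOSC7 was at -0.04 (SE 0.07) and EXOSC10, the nuclear catalytic subunit, at -0.03 (SE 0.08). EXOSC5 was at 0.01 (SE 0.12), EXOSC1 at 0.04 (SE 0.08) and EXOSC4 at 0.06 (SE 0.16), the last with a CA range of 6.87 to 7.88 and an SA range of 7.06 to 7.55. Without CA piglet 4, all 7 exosome genes and all 17 small subunit genes had a lower mean in CA, and the exosome genes other than EXOSC8 and EXOSC3 were then at -0.0086 (EXOSC7), -0.08 (EXOSC10), -0.07 (EXOSC5), -0.0055 (EXOSC1) and -0.04 (EXOSC4). Without SA piglet 10, 3 of 7 exosome and 12 of 17 small subunit genes were lower. EXOSC1 and EXOSC4 were at 0.08 and 0.16 without CA piglet 1, and EXOSC5 was at 0.08 without CA piglet 5.

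Seen piglet by piglet, the nucleolar genes did not divide strictly by group. The mean deviation of the 37 genes from their own means was -0.14, -0.03, 0.01, 0.09, -0.01 and -0.13 in CA piglets 1 to 6. In SA piglets 7 to 12 it was -0.01, 0.10, 0.01, 0.15, -0.02 and -0.01. The CA mean was -0.04 ± 0.09 and the SA mean 0.04 ± 0.07 (SD, n = 6 each), and the groups overlapped. In CA piglet 1 only 2 of the 37 genes were above their own mean and in CA piglet 6 only 6, while in SA piglet 8 it was 30 and in SA piglet 10 it was 33. The lowest of the 12 values of a gene belonged to a CA piglet for 35 of the 37 genes (94.6%, against 55.3% of all genes). The exceptions had their lowest value in SA piglet 12. The lowest values came mostly from a few animals, since CA piglets 4, 6 and 1 held them for 28 of the 37 genes. The highest value belonged to CA piglet 4 or SA piglet 10 for 26 of the 37, and to CA piglet 4 for 17 of the 37. The share of all genes was not counted for these sets of piglets. CA piglet 4 alone held the lowest value for 16.4% and the highest for 25.1% of all genes, so such extremes are not particular to the nucleolar genes.

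**Figure D3:**
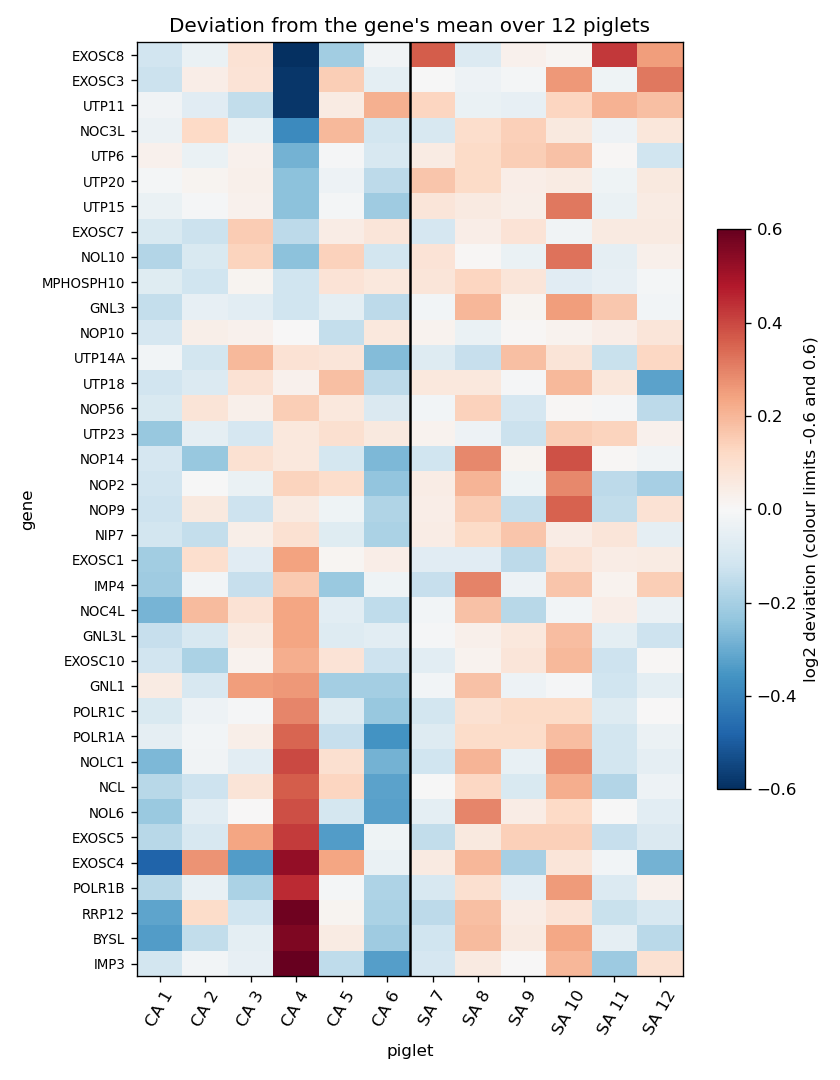
Deviation of each of the 37 nucleolar genes (rows, sorted by the value of CA piglet 4 against the median of the other CA piglets) from its mean over 12 piglets, in log2, by piglet (columns, CA left of the line, SA right), with colours limited at -0.6 and 0.6. CA piglets 1 and 6 are mostly blue (low), SA piglets 8 and 10 mostly red (high), and CA piglet 4 holds both the lowest values (9 genes) and the highest (17 genes).

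CA piglet 4 did not follow either pattern. It had the highest of the 12 values for 17 of the 37 genes (45.9%, against 25.1% of all genes) and the lowest for 9 (24.3%, against 16.4% of all genes). The low genes were EXOSC8, EXOSC3, UTP11, NOC3L, UTP6, UTP20, UTP15, EXOSC7 and NOL10. EXOSC8 was 0.65, EXOSC3 0.62 and UTP11 0.56 below the median of the other CA piglets. Among the high genes were IMP3, BYSL and RRP12, at 0.74, 0.71 and 0.70 above that median, and the polymerase genes POLR1B (0.61), POLR1A (0.40) and POLR1C (0.37). NCL (0.49) and NOLC1 (0.46) were high there as well. The spread was larger in CA than in SA piglets for 29 of the 37 genes (78.4%, against 62.0% of all genes), and without this piglet for 19 of the 37 (51.4%, against 46.9%). Whether the division of the genes in this piglet belongs to the animal or to the array was not tested.

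Ribosome production genes outside the name rule gave similar values. Of 62 such genes measured out of a list of 103, 47 were lower in CA (75.8%), with a median difference of -0.05. With limma, 0 passed after adjustment, and 3 were lower and 0 higher at an unadjusted p under 0.05, where 1.22% of all genes were lower and 2.06% higher. NSA2, a factor of the large subunit, had 9.33, 9.40 and 9.45 in CA piglets, against 9.39, 9.53 and 9.83 in SA piglets. All 6 CA piglets were below the SA median, and the difference was -0.19 (SE 0.07, exact permutation p 0.0087, limma p 0.0211). GAR1, of the H/ACA particles like NOP10, was at -0.22 (SE 0.10, exact permutation p 0.0563, limma p 0.0410), and DDX18, an RNA helicase of the nucleolus, at -0.18 (SE 0.08, exact permutation p 0.0498, limma p 0.0445). As with the nucleolar genes, the count depended on single piglets. It was 36 of 62 without SA piglet 10 (58.1%, against 46.8% of all genes) and 40 of 62 without CA piglet 6 (64.5%, against 45.8%). It was also 40 of 62 without CA piglet 1 (against 45.1% of all genes) and 41 of 62 without SA piglet 8 (66.1%, against 47.0%). Without CA piglet 4 it was 48 of 62 (77.4%, against 50.6%).

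**Figure D4:**
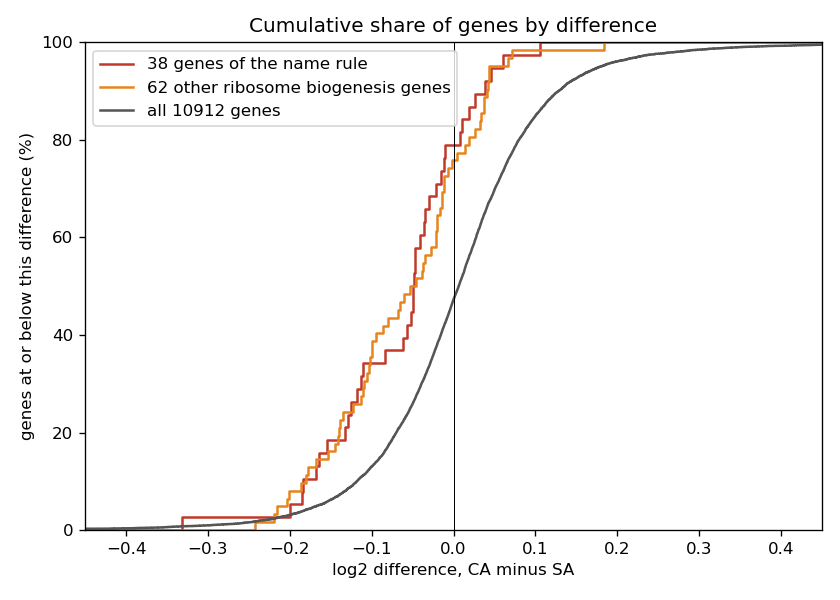
Cumulative share of genes in percent (y axis) at or below each log2 difference between CA and SA piglets (x axis) for the 38 genes of the name rule, 62 other ribosome biogenesis genes and all 10912 genes. At a difference of 0 the first curve stands at 78.9% and the second at 75.8%, against 47.3% for all genes.

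MYC itself had a higher mean in CA, within the spread of the piglets. It was at 7.91, 8.24 and 8.87 in CA piglets, against 7.99, 8.10 and 8.45 in SA piglets, a difference of 0.17 (SE 0.14, exact permutation p 0.314). The highest CA value belonged to piglet 4, without which the difference was 0.05. Of the 7 measured genes of the MYC family, 3 were lower in CA, and their median was 0.04.

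Markers of dividing cells and of parietal cells were set beside the nucleolar genes, with 8 further marker lists. Of 13 markers of dividing cells, 5 were measured (TOP2A, CDK1, CCNB2, CCNA2 and AURKA), and 5 of 5 were lower in CA, with a median difference of -0.21 and 0 at an unadjusted p under 0.05 in limma (the lowest p being 0.0612). Their summed linear intensity ran from 1553 to 2556 in CA and from 1544 to 2425 in SA piglets. Of 7 markers of parietal cells, the acid-secreting cells, 6 were measured, and 6 of 6 were higher in CA, with a median of 0.34. In limma, 3 of them had an unadjusted p under 0.05, where 2.06% of all genes were higher, and in the exact permutation test 1 did, where 2.1% of all genes were higher. Their summed intensity ran from 9127 to 12743 in CA and from 7506 to 12493 in SA piglets. None of these markers was at 0 in any array, a value this array method does not give. In the 8 other marker lists (chief, mucous, endocrine, T and B cells, macrophages, smooth muscle and endothelium), the ranges of the mean deviation overlapped between CA and SA piglets. The medians of these lists lay between -0.15 for macrophages and dendritic cells (2 of 3 lower) and 0.17 for endocrine cells (1 of 5 lower). Chief cells were at 0.05 (1 of 3 lower), T cells at -0.05 (5 of 6 lower), smooth muscle at -0.07 (3 of 3 lower) and endothelium at 0.11 (0 of 4 lower). At an unadjusted p under 0.05 in limma there were 2 genes in these lists, 1 of 6 T cell markers and 1 of 3 macrophage markers. Of all genes, 1.22% were lower and 2.06% higher at that threshold. LCK, a kinase of T cells, was at -0.22 (SE 0.06, limma p 0.0044, exact permutation p 0.0065), and CD14, of macrophages, at 0.15 (SE 0.06, limma p 0.0298, exact permutation p 0.0238), the other macrophage markers being lower. Both genes were dimmer than the median feature (5.82 in log2). LCK had a mean of 4.99 in CA and 5.21 in SA piglets, and CD14 of 5.48 and 5.33.

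By piglet, the order of these lists was only in part that of the nucleolar genes. The nucleolar genes were low in CA piglets 1 and 6, and there the markers of dividing cells deviated by -0.29 and -0.19 and the parietal markers by 0.28 and 0.50. SA piglet 10, where the nucleolar genes were highest, had 0.26 for dividing cells and -0.66 for parietal cells, the lowest parietal value of the 12. CA piglet 3 and SA piglet 9 went against their groups for both marker lists (0.33 and -0.38 for dividing cells, -0.28 and 0.47 for parietal cells), while their nucleolar genes stayed near the mean, both at 0.01. CA piglet 4 had -0.30 for dividing cells and 0.17 for parietal cells beside 0.09 for the nucleolar genes. The part of cell composition in the nucleolar values was not tested.

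**Figure D5:**
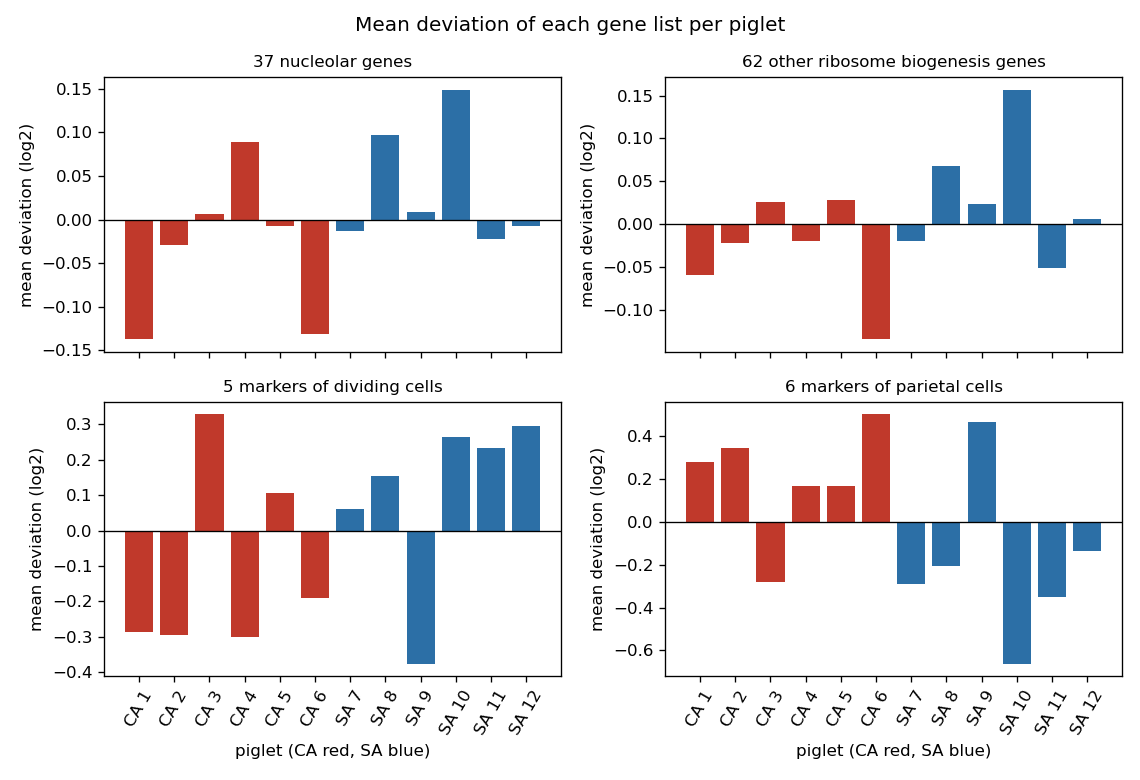
Mean log2 deviation (y axis, on a scale of its own in each panel) from each gene's mean over 12 piglets, by piglet (CA red, SA blue), for 37 nucleolar genes, 62 other ribosome biogenesis genes, 5 markers of dividing cells and 6 markers of parietal cells. SA piglet 10 is the highest bar for both ribosome panels (0.15 and 0.16) and the lowest for parietal markers (-0.66).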

How the data were processed

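Total RNA of the oxyntic mucosa was hybridized by the authors on porcine gene array strips of Affymetrix. They ran Robust Multichip Analysis (background correction, quantile normalization, summary per feature) with the Expression Console, version not given in the sources used here, and deposited linear intensities. Labels and methods differ in the RNA kit they name. The number of sample columns left unused was 0. Of 27558 features, the platform annotation gave 11982 a single symbol, 373 several and 15203 none, and 37 of the 38 members have the same symbol in RefSeq. The gene RRP36 shares a feature with another gene and is not a member. Of 5 members with several features, NOP10 and POLR1C have 2 features with equal values. The unused feature of MPHOSPH10 had a difference of 0.006, against -0.048 in the one used. The unused features of GNL1 were at -0.003 and 0.014, against 0.018.

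The deposited intensities were converted to log2 and fitted for all 10912 genes with limma 3.58.1 (lmFit, eBayes) in R 4.3.3, with no covariate, no filter and Benjamini-Hochberg adjustment. An exact permutation test, two-sided, enumerated the 924 splits of the piglets for every gene. Both were tested on simulated data. Replicates are piglets, and the number of arrays limits the precision. The members, the role lists and the marker lists were chosen with earlier results of these data known, and lists received no test. Named genes were the members at an unadjusted p under 0.05, the 2 with the smallest p and the brightest in each role, the 2 largest differences against the majority, the 3 smallest p outside the name rule, and MYC; the other members are given more briefly. A promoter motif search and sequences were not used here.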

Additional observations from a re-analysis of the deposited data

Results flagged for a closer look

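In 3 of 46 groups of 6 piglets, 1 piglet stood apart from its group by Dixon's test, where chance alone flags about 5%. UTP15 was highest in SA piglet 10, at 7.47 against an SA median of 7.21, a gap of 0.684 of the group's range, and this was the piglet with the highest mean of the nucleolar genes. POLR1B was highest in CA piglet 4, at 8.06 against a CA median of 7.51 (0.723 of the range). GNLY, the granulysin gene, was lowest in CA piglet 1, at 4.84 against a CA median of 5.59 (0.735 of the range).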

How the results depend on the processing

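The direction of the nucleolar genes as a whole did not turn under any alternative run, while its size did change. The 30 genes lower in CA stayed at 30 with the mean of all features, without dim features (37 members, GNLY left out), after renewed quantile normalization, after median centring, with an intensity trend and without GNLY (chosen after seeing the data), and became 34 with array weights. In these fits the share of all genes lower in CA was between 47.2% (mean of all features) and 52.2% (without dim features). Members lower at an unadjusted p under 0.05 numbered 3 in the main fit, without dim features and after renewed quantile normalization. Of all genes, 133, 73 (of 6274) and 155 were lower at that threshold in these fits. The members were 2 with the mean of all features (all genes 130) and with an intensity trend (all genes 126). They were 4 after median centring (all genes 146) and 5 with the exact permutation test (all genes 145). With array weights they were 7, where 305 of all 10912 genes were lower at that threshold, against 133 in the main fit. When 1 piglet was left out they ran from 2 (without SA piglet 8, all genes 144, or 10, all genes 99) to 6 (without CA piglet 3, all genes 232). Without CA piglet 4 they were 5 (all genes 234). All genes at an unadjusted p under 0.05 in either direction numbered 358, 193 without dim features (fewer genes tested), 700 with array weights, and between 243 (without SA piglet 12) and 672 (without SA piglet 9) when 1 piglet was left out. The number of genes at an adjusted p under 0.05 was 0 in each of these limma fits and in the exact test. The median ranged from -0.08 (without CA piglet 4) to -0.02 (without CA piglet 6), and the members lower in CA from 23 (without SA piglet 10) to 36 (without CA piglet 4).

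Of 413 alternatives for the 23 named genes, 15 changed the sign, and the lowest adjusted p was 0.595. GNL1 became -0.063 with array weights. When 1 piglet was left out, the difference ranged from -0.089 to 0.048 for NCL, from -0.032 to 0.061 for GNL1, from -0.137 to 0.0040 for POLR1A, from -0.134 to 0.0029 for NOLC1, from -0.080 to 0.0044 for GNL3L, from -0.039 to 0.162 for EXOSC4 and from -0.0023 to 0.238 for GNLY. The cause was not tested. No paired analysis was possible because the replicate numbers are pig numbers that CA and SA piglets do not share.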
